A study of Mus musculus with 9 samples.

Results

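The genes described here are 10 genes that mark phagocytes loaded with lipid or with the disease-associated state of microglia: Trem2, Tyrobp, Apoe, Gpnmb, Spp1, Lpl, Clec7a, Cst7, Cd68 and Fabp5. They were given as a list of symbols, and each symbol matched 1 identifier among the 52550 genes of the count table. All 10 were among the 18699 genes with enough counts to be tested. RNA was sequenced from the spinal cord of 9 adult female C57BL/6N mice, 3 in each of 3 groups, 7 days after surgery. Sham mice had a laminectomy only. SCI mice had a contusion of the cord at the T10 level followed by intraperitoneal DMSO, and SCI+FIPI mice had the same contusion followed by daily intraperitoneal FIPI, a small molecule that inhibits phospholipase D. The tissue was a segment of whole cord around the epicenter, so each value is the sum over every cell type in it. No group received FIPI without an injury.

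Phagocytes that take up myelin and dead cells must break down and export large amounts of lipid. TREM2 is a receptor at their surface that binds lipids and lipoproteins and signals through the adaptor TYROBP, also called DAP12, to the kinase SYK. APOE carries cholesterol out of the cell, lipoprotein lipase releases fatty acids from lipoprotein particles, and FABP5 carries fatty acids within the cell. CD68 and GPNMB sit mainly in the membranes of late endosomes and lysosomes, CST7 encodes an inhibitor of lysosomal cysteine proteases, CLEC7A (Dectin-1) binds beta-glucans and also signals through SYK, and SPP1 encodes the secreted protein osteopontin. In microglia of diseased or demyelinated nervous tissue these genes rise together, and they are shared with foamy macrophages that enter from the blood.

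Total counts lay between 20806000 and 24582377 per mouse, and values below are CPM, the count scaled to a common library total with TMM factors, unless FPKM (scaled by the total alone, per kilobase of exons) is named. The tissue carried markers of spinal cord in every mouse, with summed levels of 2309 to 8387 CPM for 10 neuron genes and 23550 to 34730 CPM for 7 oligodendrocyte genes. Some mice lay at an edge of their group for most of the genes. Sham 3 was the lowest Sham mouse for 10 of the 10 genes and for 12 of 12 pan-phagocyte markers (genes shared by microglia and macrophages, such as Itgam, Csf1r and Aif1). SCI+FIPI 1 was the highest mouse of its group for 8 of the 10 genes, and it had 348 CPM over 6 Schwann cell genes and 23.3 CPM over 8 neutrophil and marrow genes, against 878 and 919 CPM and 125 and 135 CPM in the other mice given FIPI. The Schwann cell genes summed to 307 to 581 CPM in Sham and 524 to 643 CPM in SCI mice. The neutrophil and marrow genes summed to 36.9 to 107 and 52.8 to 65.6 CPM in the same groups. SCI 3 was the highest SCI mouse for 9 of the 10 genes and 10 of the 12 markers. SCI+FIPI 2 was the lowest mouse of its group for 7 of the 10 genes and 11 of the 12 markers. Results that change without Sham 3 or SCI+FIPI 1 are given both ways.

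The level of each gene per length of its exons is given first, since CPM of different genes cannot be compared. In the Sham group Apoe was far above the others at 1481 ± 284 FPKM (SD, n = 3). Spp1 followed at 78.0 ± 12.7 FPKM. Fabp5, Tyrobp and Cd68 came next with means between 23.7 and 32.6 FPKM and overlapping mice. Clec7a, Trem2, Cst7, Gpnmb and Lpl formed the low end with means between 3.32 and 7.04 FPKM, and each overlapped its neighbor in the order. After injury Apoe and Spp1 kept the first places at 9000 ± 1052 and 2999 ± 336 FPKM. Gpnmb moved from place 9 of 10 in the Sham group to place 3 in the SCI group, at 586 ± 66.1 FPKM, where it overlapped Cd68 at 540 ± 62.3 FPKM. Tyrobp, Fabp5 and Trem2 followed at 332 ± 43.8, 124 ± 7.74 and 74.7 ± 9.87 FPKM, and Clec7a overlapped Trem2 at 59.0 ± 10.7 FPKM. Lpl and Cst7 were last at 33.6 ± 7.50 and 27.0 ± 3.67 FPKM and overlapped each other. The SCI+FIPI group had the same order, from Apoe at 7423 ± 633 FPKM to Cst7 at 21.5 ± 1.99 FPKM.

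**Figure D1:**
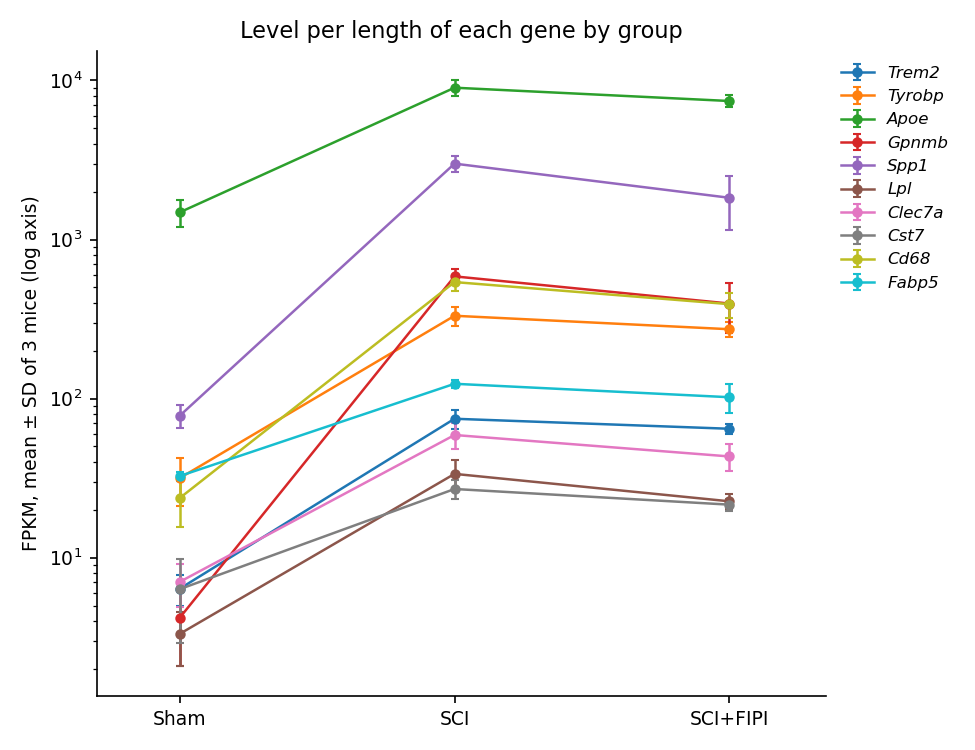
Level of each of the 10 genes per exonic length (FPKM, log axis) in the Sham, SCI and SCI+FIPI groups; points are means of 3 mice, bars are SD, and lines join the means of a gene. Apoe is the highest line in each group, and Gpnmb climbs from 4.19 FPKM in the Sham group to 586 FPKM in the SCI group.

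The 10 genes together took 0.280% to 0.407% of all counts in the Sham mice, 2.72% to 3.36% in the SCI mice and 2.07% to 2.59% in the SCI+FIPI mice. Apoe alone took 1.70% to 2.15% of all counts in the SCI mice. The 3 ranges of the 10 genes together do not overlap, and the SCI+FIPI mice lie between the other groups and closer to the SCI mice. For Apoe alone the SCI+FIPI mice had 1.44% to 1.71%, which overlaps the SCI mice.

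The starts of these genes are shown because all 10 rose after injury. RefSeq promoters on GRCm38.p6 (250 bases before to 50 after an annotated start) were matched for 7 of the 10 genes, 11 promoters in all, and Tyrobp, Lpl and Fabp5 had no entry. They were searched on both strands for CACGTG, the E-box core that MiT-TFE factors of the lysosome bind. The other searches were for GAGGAAGT, a site of the myeloid factor PU.1, and TGANTCA, the AP-1 site with any middle base. The AP-1 letters were found in 4 of the 11 promoters, those of Trem2, Gpnmb, Cst7 and Cd68, and in 7.81% of all 32851 mouse promoters in the table. They read TGACTCA in Gpnmb and TGAGTCA in Cd68. In Trem2 they read TGAATCA and in Cst7 TGATTCA, which are not the AP-1 site itself. The label AP-1 below marks the letters TGANTCA, and no share of all promoters was computed for the site itself. In each of these 4 genes a match began between 24 bases before and 8 bases after the start. Cd68 held another match, also TGAGTCA, that began 149 bases before the start. A window of 60 bases before to 20 after the start, chosen after these matches were seen, holds the AP-1 letters in 1.99% of all promoters. The PU.1 letters were found in 1 promoter, that of Spp1, and in 3.20% of all promoters. The E-box letters were in none of the 11 promoters and in 7.15% of all promoters. These are matches of letters in a short window, and nothing in the count table measures binding. Apart from the Cd68 match 149 bases before the start, the windows with matches are printed 5′ to 3′ on the strand of the gene, with the matched letters in capitals:
Trem2 (chr17:48346341-48346420, plus strand, AP-1): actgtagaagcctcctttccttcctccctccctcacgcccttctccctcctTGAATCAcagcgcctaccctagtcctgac
Gpnmb (chr6:49036458-49036537, plus strand, AP-1): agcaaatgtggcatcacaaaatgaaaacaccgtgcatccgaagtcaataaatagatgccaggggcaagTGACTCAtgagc
Cst7 (chr2:150570355-150570434, plus strand, AP-1): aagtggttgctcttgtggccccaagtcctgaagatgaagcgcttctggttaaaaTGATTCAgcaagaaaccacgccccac
Cd68 (chr11:69666151-69666230, minus strand, AP-1): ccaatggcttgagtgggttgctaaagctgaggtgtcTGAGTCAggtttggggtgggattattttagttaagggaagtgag
Spp1 (chr5:104434961-104435040, plus strand, PU.1): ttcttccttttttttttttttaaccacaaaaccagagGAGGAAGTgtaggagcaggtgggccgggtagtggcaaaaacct

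The comparison of SCI with Sham asks how contusion changed these genes in mice without the drug. All 10 rose, with log2 fold changes between 1.96 and 7.17 and a median of 3.40, and in each of them every SCI mouse was above every Sham mouse. Genes counted as called had a log2 fold change of 0.5 or more in either direction and passed edgeR's quasi-likelihood test at 0.05 after Benjamini-Hochberg adjustment. Of all genes tested, 24.4% were called higher and 22.5% lower after injury, 35.6% had every SCI mouse above every Sham mouse, and the median log2 fold change was -0.003. In bulk tissue, more cells of a type and more RNA per cell cannot be told apart. Whether the mice of a group came from separate cages or surgery days is not given, so the p-values cover the spread between these mice.

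The comparison of SCI+FIPI with SCI asks whether the inhibitor altered that response. All 10 genes had negative log2 fold changes, between -0.74 and -0.23 with a median of -0.41, and none was called in edgeR, with adjusted p-values between 0.141 and 0.517. Among all genes tested, 0.695% were called lower and 2.36% higher, and the median was -0.001. Without a limit on the fold change, 3.58% of all genes were lower at an adjusted p under 0.05, and again none of the 10. This depends on the filter for low counts: when every gene with a count was fitted, Apoe (-0.30, edgeR adjusted p = 0.00154) and Fabp5 (-0.31, edgeR adjusted p = 0.000382) passed the p limit but not the fold limit. At an unadjusted p under 0.05, 3 of the 10 were lower (Apoe, Spp1 and Fabp5), against 11.5% of all genes. DESeq2 and limma-voom, with the same limits, also called 0 of the 10. In 7 of the 10 every SCI+FIPI mouse was below every SCI mouse, against 14.5% of all genes. That count depends on the scaling: with upper-quartile factors, and also with total counts alone, it was 4 of the 10, against 12.2% of all genes with the former. It was 10 of 10 without SCI+FIPI 1, and 7 or 9 without another injured mouse. With a mouse left out, groups separate more easily in any gene. The shares of all genes were not computed for those counts or for total counts alone.

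The comparison of SCI+FIPI with Sham shows what remained of the response in treated mice. All 10 genes were called higher, with log2 fold changes between 1.65 and 6.58 and a median of 2.95, against 21.2% of all genes called higher and 17.0% called lower. Every SCI+FIPI mouse was above every Sham mouse in each of the 10, against 33.4% of all genes. Trem2 was at 3.35 (SE 0.164, edgeR adjusted p = 1.91e-07), Tyrobp at 3.12 and Clec7a at 2.63. Of the lipid genes, Apoe was at 2.33, Lpl at 2.78 and Fabp5 at 1.65. Gpnmb at 6.58 (SE 0.537, edgeR adjusted p = 5.34e-05) and Spp1 at 4.56 (SE 0.308, edgeR adjusted p = 1.03e-05) ranked 6 and 46 from the top of all genes tested, with Cd68 at 4.06 and Cst7 at 1.79. The 3 comparisons share mice by pairs, so they are not independent.

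**Figure D2:**
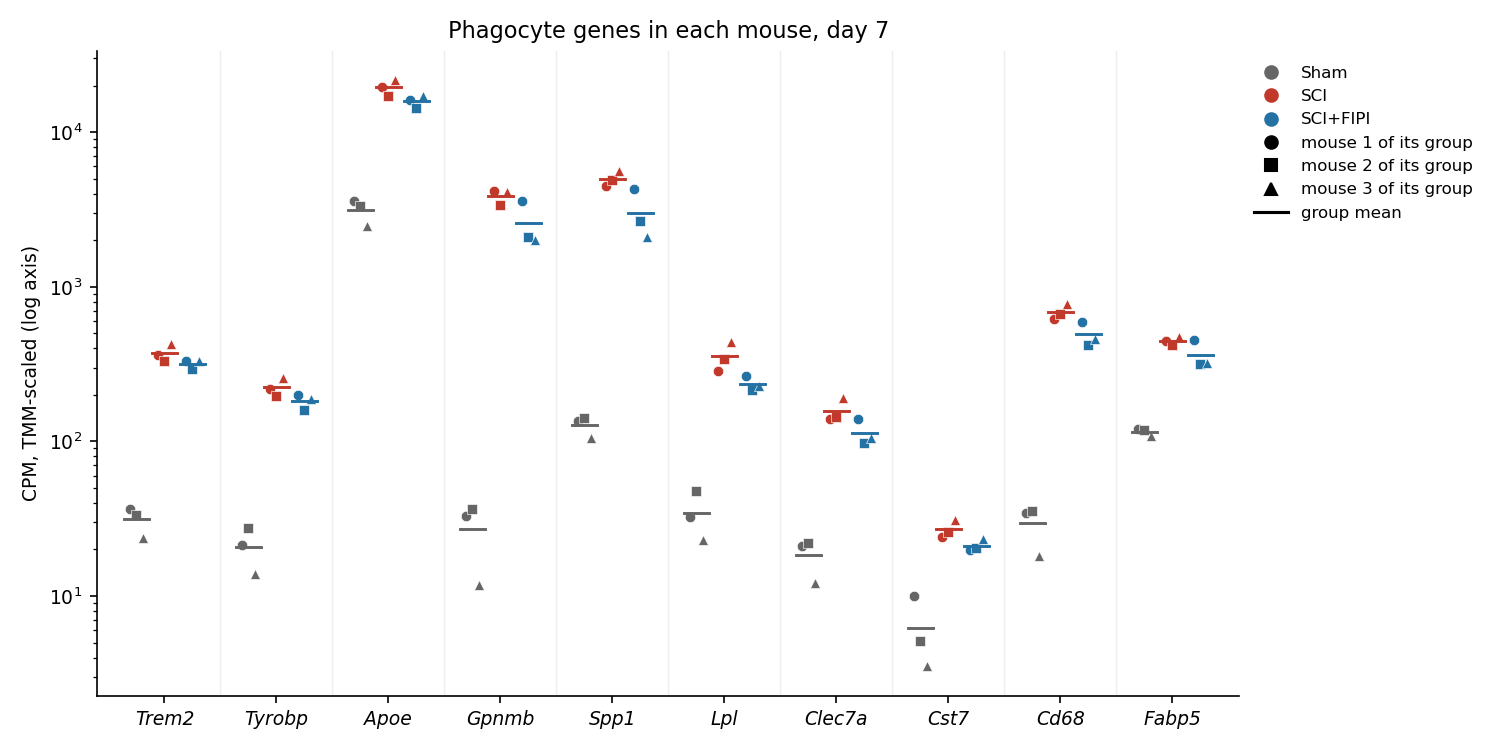
CPM of the 10 genes in each of the 9 mice (log axis); color gives the group, marker shape the number of the mouse within its group, and bars the group means. Sham 3 is the lowest Sham mouse for every gene, and SCI+FIPI 1 lies among the SCI mice for Gpnmb, Tyrobp and Fabp5.

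Trem2 (ENSMUSG00000023992, chr17:48346401-48354147 on GRCm38) encodes the lipid receptor. It had 36.7, 33.4 and 23.8 CPM in Sham mice 1 to 3, 361, 333 and 428 CPM in the SCI mice, and 333, 292 and 331 CPM in the SCI+FIPI mice. The Sham and injured mice are far apart, whereas the highest SCI+FIPI mouse (332.9 CPM) is barely under the lowest SCI mouse (333.2 CPM). Trem2 rose 11.98-fold after SCI (log2 fold change 3.58, SE 0.165, edgeR adjusted p = 6.58e-08). With FIPI the log2 fold change against SCI was -0.23 (SE 0.145, edgeR adjusted p = 0.367), the smallest difference of the 10 genes. The separation of SCI+FIPI from SCI mice in Trem2 was lost with upper-quartile factors and with total counts alone.

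Tyrobp (ENSMUSG00000030579, chr7:30413760-30417585) encodes the adaptor through which TREM2 signals. Its levels were 21.5, 27.3 and 13.8 CPM in Sham mice, 220, 197 and 255 CPM in SCI mice, and 198, 159 and 187 CPM in SCI+FIPI mice. SCI+FIPI 1 overlapped the lowest SCI mouse. The receptor and its adaptor rose by similar folds, Tyrobp by 10.7-fold (log2 fold change 3.43, SE 0.246, edgeR adjusted p = 1.06e-05). With FIPI the log2 fold change was -0.30 (SE 0.215, edgeR adjusted p = 0.443).

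Clec7a (ENSMUSG00000079293, chr6:129461591-129472779) encodes Dectin-1, a second receptor upstream of SYK. It was at 20.9, 22.1 and 12.2 CPM in Sham mice, 139, 144 and 191 CPM in SCI mice and 139, 97.8 and 105 CPM in SCI+FIPI mice. The highest SCI+FIPI mouse (139.1 CPM) and the lowest SCI mouse (139.2 CPM) were nearly level, and they overlapped with RLE factors in place of TMM. Clec7a rose 8.60-fold after SCI (log2 fold change 3.10, SE 0.272, edgeR adjusted p = 4.19e-05). Its log2 fold change with FIPI was -0.47 (SE 0.240, edgeR adjusted p = 0.286).

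The 19 other genes fixed as partners of TREM2 and Dectin-1 signaling (kinases, adaptors, phosphatases and sheddases) were described in the same way. For this list and those below, the shares over all genes tested were 24.4% called higher and 22.5% called lower after SCI. With FIPI these shares were 2.36% and 0.695%. After SCI 16 of 19 were called higher and none lower (median 2.16 on the log2 scale), led by Ms4a6d (3.97), Syk (3.00), Btk (2.93) and Ptpn6 (2.71). With FIPI all 19 had negative log2 fold changes (median -0.37) and 3 were called lower, which is 15.8% of the list. These were Syk, the kinase that both receptors recruit, at -0.60 (SE 0.136, edgeR adjusted p = 0.0258), Btk, a kinase downstream of it, at -0.57 (SE 0.120, edgeR adjusted p = 0.0112), and Card9, the adaptor that links Dectin-1 to NF-kappaB, at -0.53 (SE 0.118, edgeR adjusted p = 0.0140). Syk was at 85.6, 102 and 114 CPM in the SCI mice and 74.3, 58.3 and 65.5 CPM in the SCI+FIPI mice, with no overlap. The count of 3 was 0 without SCI 3 or without SCI+FIPI 2, 2 without SCI 2 or without SCI+FIPI 3, and 5 without Sham 3 or without SCI+FIPI 1.

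Apoe (ENSMUSG00000002985, chr7:19696109-19699188) encodes the lipoprotein that carries cholesterol between cells of the nervous system. It was at 3607, 3327 and 2486 CPM in Sham mice, 19509, 17246 and 21718 CPM in SCI mice, and 16061, 14388 and 17017 CPM in SCI+FIPI mice. The 3 groups do not overlap under TMM scaling, although the highest SCI+FIPI mouse is close to the lowest SCI mouse. Apoe rose 6.21-fold after SCI (log2 fold change 2.63, SE 0.139, edgeR adjusted p = 7.02e-09), the lowest p-value of the 10. With FIPI it was at -0.30 (SE 0.131, edgeR adjusted p = 0.177). Astrocytes also express Apoe in the healthy cord. Beside it, the summed level of 8 astrocyte genes was 9612 to 10101 CPM in Sham, 12990 to 14943 CPM in SCI and 13442 to 14109 CPM in SCI+FIPI mice, and its part in the Apoe values was not tested.

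Lpl (ENSMUSG00000015568, chr8:68880491-68907448) encodes lipoprotein lipase. Sham mice had 32.6, 47.6 and 23.0 CPM, SCI mice 286, 343 and 443 CPM, and SCI+FIPI mice 266, 215 and 228 CPM. The treated mice lie closely together below the SCI mice, which spread more widely (coefficient of variation 22.2% in SCI, 11.3% in SCI+FIPI). The rise after SCI was 10.4-fold (log2 fold change 3.38, SE 0.304, edgeR adjusted p = 5.34e-05). Lpl had a log2 fold change of -0.60 with FIPI (SE 0.271, edgeR adjusted p = 0.236), past the fold limit but not the p limit. Of its 50-base stretches, 1.69% also occur in other genes.

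Fabp5 (ENSMUSG00000027533, chr3:10012548-10016607) encodes a fatty acid binding protein. It was at 121, 118 and 108 CPM in Sham mice, 448, 421 and 475 CPM in SCI mice and 451, 315 and 323 CPM in SCI+FIPI mice. SCI+FIPI 1 lies within the SCI mice, and the other treated mice lie well below them. Fabp5 rose 3.88-fold after SCI, the smallest rise of the 10 (log2 fold change 1.96, SE 0.128, edgeR adjusted p = 1.65e-07). With FIPI it was at -0.30 (SE 0.122, edgeR adjusted p = 0.154), and at -0.49 without SCI+FIPI 1 (edgeR adjusted p = 0.00563), still inside the fold limit. Without SCI+FIPI 2 it was at -0.21 (edgeR adjusted p = 0.410). Fabp5 shares 4.42% of its 50-base stretches with annotated copies such as Gm6166, so its counts are less certain.

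Among 23 other genes of lipid uptake, storage and efflux, 19 were called higher and 2 lower after SCI, with a median log2 fold change of 1.70. The largest rises were in Cd36 (6.05) and Msr1 (5.50), both scavenger receptors, Fabp4 (5.06), a relative of Fabp5, and Plin2 (4.50), the coat protein of lipid droplets. Vldlr, a lipoprotein receptor, was among those that fell (-0.82). With FIPI 18 of 23 had negative log2 fold changes, with a median of -0.29, and 1 was called higher and none lower. Plin2 was at 428, 570 and 608 CPM in SCI mice and 423, 286 and 276 CPM in SCI+FIPI mice, with a log2 fold change of -0.71 (SE 0.203, edgeR adjusted p = 0.0752). Without SCI+FIPI 1, 4 genes of the list were called lower (Lipa, Msr1, Plin2 and Soat1), and without SCI 1, 2 were (Msr1 and Plin2).

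Cd68 (ENSMUSG00000018774, chr11:69664213-69666153) encodes a glycoprotein of phagocyte lysosomes that is widely used to stain activated microglia and macrophages. It had 34.7, 35.6 and 18.1 CPM in Sham mice, 623, 664 and 776 CPM in SCI mice and 593, 420 and 462 CPM in SCI+FIPI mice. All treated mice were below all SCI mice, with SCI+FIPI 1 nearest to them. Cd68 rose 23.4-fold (log2 fold change 4.55, SE 0.299, edgeR adjusted p = 7.31e-06), rank 71 from the top of all genes tested. With FIPI the log2 fold change was -0.48 (SE 0.253, edgeR adjusted p = 0.295). Without Sham 3 it was the same size with an edgeR adjusted p of 0.0447, still inside the fold limit. Without SCI+FIPI 2 it was at -0.38 (edgeR adjusted p = 0.572).

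Gpnmb (ENSMUSG00000029816, chr6:49036546-49070929) encodes a transmembrane glycoprotein of phagolysosomes. Sham mice had 32.7, 36.5 and 11.7 CPM, SCI mice 4151, 3379 and 4077 CPM, and SCI+FIPI mice 3596, 2101 and 2017 CPM. The SCI mice are far above the Sham mice, and SCI+FIPI 1 is among them while the other treated mice are not. The fitted rise was 144-fold (log2 fold change 7.17, SE 0.551, edgeR adjusted p = 2.84e-05), rank 4 from the top of all genes tested, and 6.80 on the log2 scale without Sham 3. With FIPI the log2 fold change was -0.59 (SE 0.416, edgeR adjusted p = 0.445). It was -0.91 without SCI+FIPI 1 (edgeR adjusted p = 0.298) and -0.44 without SCI+FIPI 3 (edgeR adjusted p = 0.666). Melanocytes express Gpnmb as well. The summed level of 5 melanocyte genes was 1.92 to 2.59 CPM in Sham, 3.46 to 4.71 CPM in SCI and 2.54 to 5.54 CPM in SCI+FIPI mice, and Mlana had no count in the Sham mice. Their part in the Gpnmb values was not tested.

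Cst7 (ENSMUSG00000068129, chr2:150570415-150578944) encodes cystatin F, an inhibitor of lysosomal cysteine proteases. It was the gene with the fewest reads, at 84 to 208 counts in Sham mice and 442 to 737 counts in injured mice. Its levels were 9.96, 5.14 and 3.51 CPM in Sham mice, 24.1, 25.8 and 31.1 CPM in SCI mice and 19.8, 20.4 and 23.3 CPM in SCI+FIPI mice. The Sham mice varied most here (coefficient of variation 54.1%), and the treated mice lie just under the SCI mice. Cst7 rose 4.40-fold (log2 fold change 2.14, SE 0.324, edgeR adjusted p = 0.000660). With FIPI it was at -0.35 (SE 0.291, edgeR adjusted p = 0.517).

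In a list of 15 other lysosomal genes and MiT-TFE factors, which drive lysosomal genes, 12 were called higher and 1 lower after SCI, with a median log2 fold change of 1.04. The largest rises were in Atp6v0d2 (5.88), a subunit of the proton pump, Tfec (4.19), a myeloid MiT-TFE factor, Grn (3.59), which encodes progranulin, and Ctsh (2.68), a cathepsin. Atp6v1a, another pump subunit, fell by 0.54. Without Sham 3 none of the list was called lower after SCI, and without Sham 2, 2 were. With FIPI 13 of 15 had negative log2 fold changes with a median of -0.26, and none was called. Grn was called lower without SCI+FIPI 1 and without SCI 1.

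Spp1 (ENSMUSG00000029304, chr5:104435118-104441050) encodes osteopontin, a secreted ligand of integrins and CD44. It was at 136, 141 and 105 CPM in Sham mice, 4490, 4933 and 5601 CPM in SCI mice and 4266, 2672 and 2085 CPM in SCI+FIPI mice. SCI+FIPI 1 is just under the lowest SCI mouse, and SCI+FIPI 3 is at the low end. Spp1 rose 39.3-fold (log2 fold change 5.30, SE 0.319, edgeR adjusted p = 3.61e-06), rank 35 from the top. With FIPI it had the lowest log2 fold change of the 10, -0.74 (SE 0.266, edgeR adjusted p = 0.141), rank 285 from the bottom of 18699 genes. Without SCI+FIPI 1 it was called lower at -1.08 (edgeR adjusted p = 0.00597). Without SCI+FIPI 3 it was at -0.53 (edgeR adjusted p = 0.203). The gene Gm42793 overlaps Spp1 on the same strand and shares sequence with it (9.05% of the 50-base stretches of Spp1), with 0 to 42 counts in any mouse against at least 2517 counts on Spp1.

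Bone and cartilage express Spp1 and Gpnmb too, and their markers were measured in the same mice. The summed level of 9 osteoblast and hypertrophic cartilage genes was 30.1 to 33.2 CPM in Sham mice, 93.7 to 106 CPM in SCI mice and 43.2 to 58.5 CPM in SCI+FIPI mice, and Mepe had no count in the Sham mice. In the SCI mice most of this was Col10a1, the collagen of hypertrophic cartilage, with 65.9 to 80.4 CPM, against 14.8, 13.1 and 4.03 CPM in the SCI+FIPI mice. The list as a whole was mixed: of 8 tested, 4 had positive and 4 negative log2 fold changes after SCI (median 0.10), and with FIPI 6 were positive and 2 negative (median 0.31). With FIPI, Col10a1 was called lower (-2.77) and Bglap, which encodes osteocalcin, higher (2.28). The 7 osteoclast genes summed to 35.4 to 47.8 CPM in Sham, 112 to 118 CPM in SCI and 89.6 to 129 CPM in SCI+FIPI mice, with the last 2 groups overlapping and none of 5 tested called with FIPI, and Ocstamp had no count in the Sham mice. The part of these tissues in the values of Spp1 and Gpnmb was not tested.

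Of 8 receptors of osteopontin and GPNMB, 7 were called higher after SCI, with a median log2 fold change of 1.45. They included Itga5 (3.27), Itgb5 (2.19), Cd44 (1.95) and Itgb1 (1.46). With FIPI all 8 had negative log2 fold changes (median -0.22), and Itga4 was called lower at -0.58 (SE 0.149, edgeR adjusted p = 0.0271). Itga4 was not called without SCI 2, SCI 3, SCI+FIPI 2 or SCI+FIPI 3. With 1 other mouse left out, the number of the 8 called lower was larger.

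**Figure D3:**
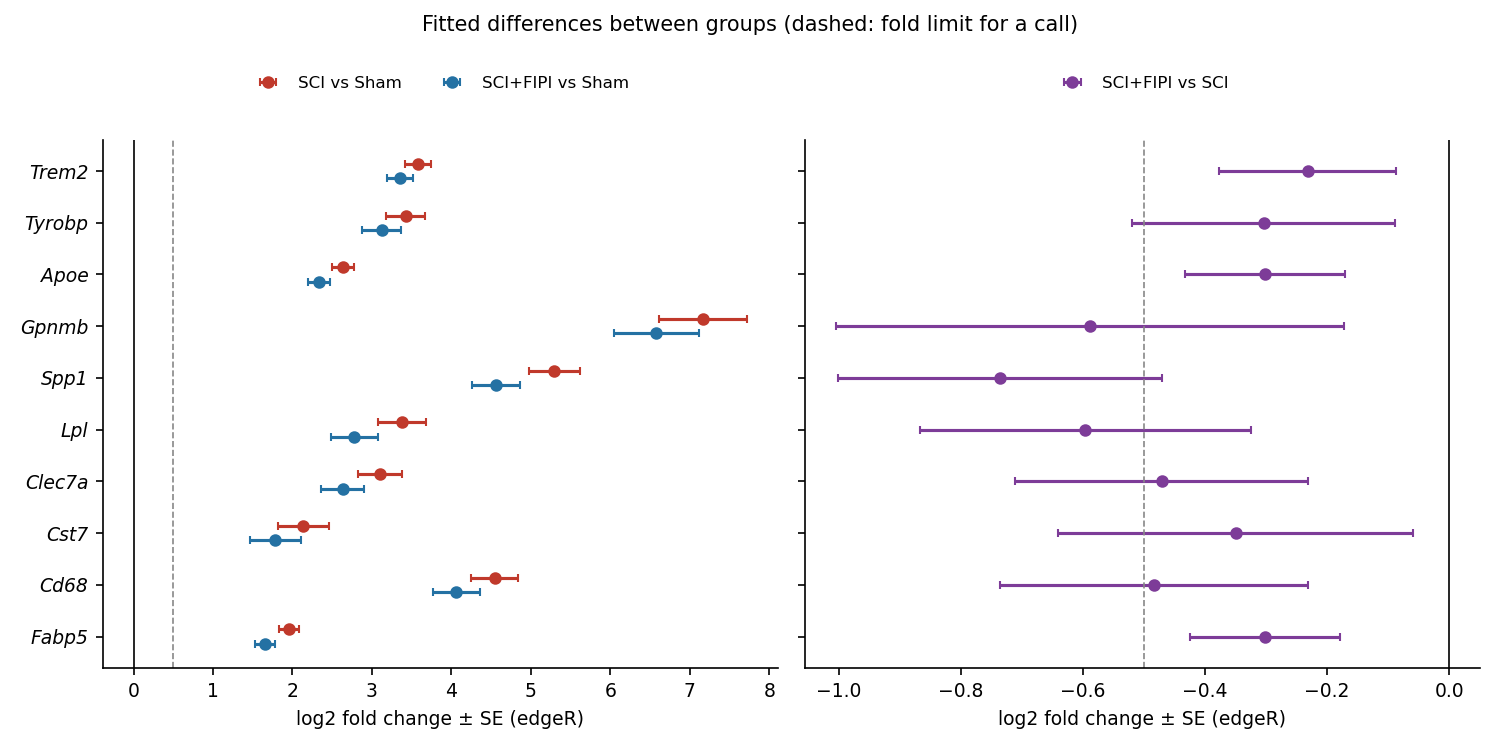
Fitted log2 fold change ± SE of the 10 genes in edgeR, for SCI vs Sham and SCI+FIPI vs Sham at left and SCI+FIPI vs SCI at right; dashed lines mark the fold limit of 0.5. All rises after injury lie between 1.96 and 7.17, and all differences with FIPI lie between -0.74 and -0.23.

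The 10 genes were then set against markers common to microglia and macrophages, to ask whether they changed by more than such markers did. All 12 pan-phagocyte markers were called higher after SCI, with a median log2 fold change of 2.76. With FIPI all 12 had negative log2 fold changes with a median of -0.35, close to the -0.41 of the 10 genes, and 1 was called lower, Spi1, which encodes PU.1 (-0.52, SE 0.120, edgeR adjusted p = 0.0251). Spi1 was not called without SCI 2, without SCI 3 or without any 1 of the SCI+FIPI mice. Without SCI+FIPI 1 another of the 12, Ptprc, was called lower. The mean log2 CPM of the 12 was 4.67 to 5.24 in Sham mice, 7.64 to 7.87 in SCI mice and 7.27 to 7.46 in SCI+FIPI mice. It was 0.36 lower with FIPI than without (two-sided exact permutation test, p = 0.1, the smallest p that 3 mice against 3 allow).

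Relative to the mean of these markers (log2 CPM of the gene minus the mean log2 CPM of the 12), 7 of the 10 genes were higher in every SCI mouse than in every Sham mouse, against 1.35% of all genes tested. Gpnmb was higher by 4.62 on the log2 scale, Spp1 by 2.61 and Cd68 by 1.90. Trem2 (0.90), Tyrobp (0.77), Lpl (0.72) and Clec7a (0.43) followed. For Gpnmb the relative value was -0.21, -0.03 and -1.11 in Sham mice and 4.38, 4.01 and 4.13 in SCI mice, so the groups are far apart. Each of these 7 differences had p = 0.1 in the two-sided exact permutation test, the smallest possible here.

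The other 3 genes were not higher relative to the markers. Apoe was at 6.57, 6.48 and 6.61 in Sham mice and 6.62, 6.36 and 6.54 in SCI mice, a difference of -0.05 with overlapping groups (exact permutation p = 0.7). Fabp5 was lower relative to the markers by 0.74 and Cst7 by 0.47 (first SCI, then Sham means 1.07 and 1.81 for Fabp5, -2.99 and -2.52 for Cst7), and the SCI mice were below the Sham mice for both (exact permutation p = 0.1). For Cst7 the size rests largely on Sham 1, without which the difference was -0.16. Most genes are lower on this scale after injury, with 94.2% of all genes tested lower in every SCI mouse.

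With FIPI the relative values mostly overlapped those of SCI mice. Trem2 was the exception, at 0.86, 0.67 and 0.87 in SCI mice and 0.92, 0.92 and 0.96 in SCI+FIPI mice, a difference of 0.13 (exact permutation p = 0.1) that was 0.06 without SCI 2. That direction is common on this scale, with 58.4% of all genes tested higher in every SCI+FIPI mouse. The differences of the other 9 lay between -0.44 (Spp1) and 0.06 (Apoe). For Spp1 the relative value was 4.50, 4.55 and 4.58 in SCI mice and 4.60, 4.11 and 3.61 in SCI+FIPI mice, so SCI+FIPI 1 was above all SCI mice and the other treated mice were below them. Without SCI+FIPI 1 the groups no longer overlapped for Spp1 (-0.68), Gpnmb (-0.51), Lpl (-0.27), Cd68 (-0.24) and Clec7a (-0.23). Without SCI+FIPI 3 they overlapped for each of these genes, with Spp1 at -0.19 and Gpnmb at -0.11. With a mouse left out, groups separate more easily in any gene. The share of all genes lower on this scale with FIPI was not computed.

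**Figure D4:**
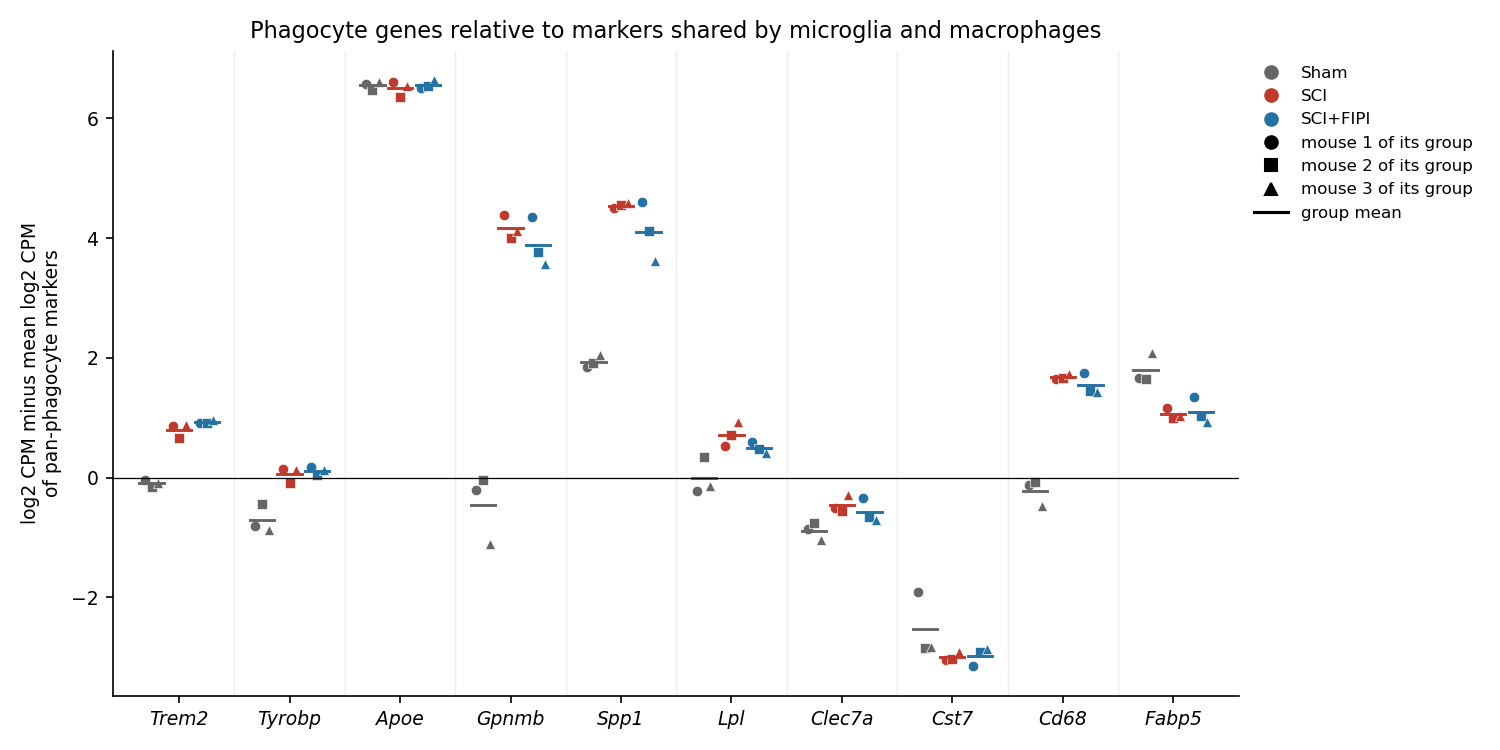
Level of each of the 10 genes relative to 12 pan-phagocyte markers (log2 CPM of the gene minus the mean log2 CPM of the markers) in each of the 9 mice; bars are group means. Gpnmb, Spp1 and Cd68 stand higher in injured mice by 4.62, 2.61 and 1.90, Apoe is level, and Fabp5 and Cst7 are lower.

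The rest of the disease-associated signature mostly rose after injury as well. Of 26 further signature genes, 22 were called higher and none lower (median 2.20), led by Lyz2 (5.13), Lgals3 (4.32), Lilrb4a (3.77) and Ctsd (3.67). With FIPI 20 of 26 had negative log2 fold changes (median -0.35) and none was called, although 5 were lower at an adjusted p under 0.05 with smaller folds. Leaving out Sham 3, SCI 1 or SCI+FIPI 1, 2 of the 26 were called lower (Itgax and Lilrb4a, Ch25h and Gusb, and Ctsl and Gusb).

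Markers of homeostatic microglia, which fall in the disease-associated state in other settings, rose in bulk. After SCI 8 of 12 were called higher, among them Fcrls (2.94), Olfml3 (2.30) and Tmem119 (1.80), and 1 was called lower, the sugar transporter Slc2a5 (-0.67). The count called lower was 0 without Sham 1 or SCI 3 and 2 without Sham 3 or SCI 2. P2ry12, a purinergic receptor of resting microglia, was not called (0.04). The median of this list was 1.36, below the 3.40 of the 10 genes. Of 8 genes of macrophages derived from monocytes, 7 were called higher, with a median of 3.62. With FIPI none of either list was called, with medians of -0.16 and -0.38, and without SCI+FIPI 1, 1 homeostatic gene was called lower.

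Neuron genes moved the other way. All 10 fell after SCI (median -1.53), and with FIPI 5 of 10 were called higher (median 0.56), with the largest change in Snap25 at 0.63 (SE 0.137, edgeR adjusted p = 0.0196). No gene of the 8 astrocyte, 7 oligodendrocyte and 7 fibroblast and pericyte markers was called with FIPI. Whether the share of neuronal RNA bears on the values of the 10 genes was not tested.

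**Figure D5:**
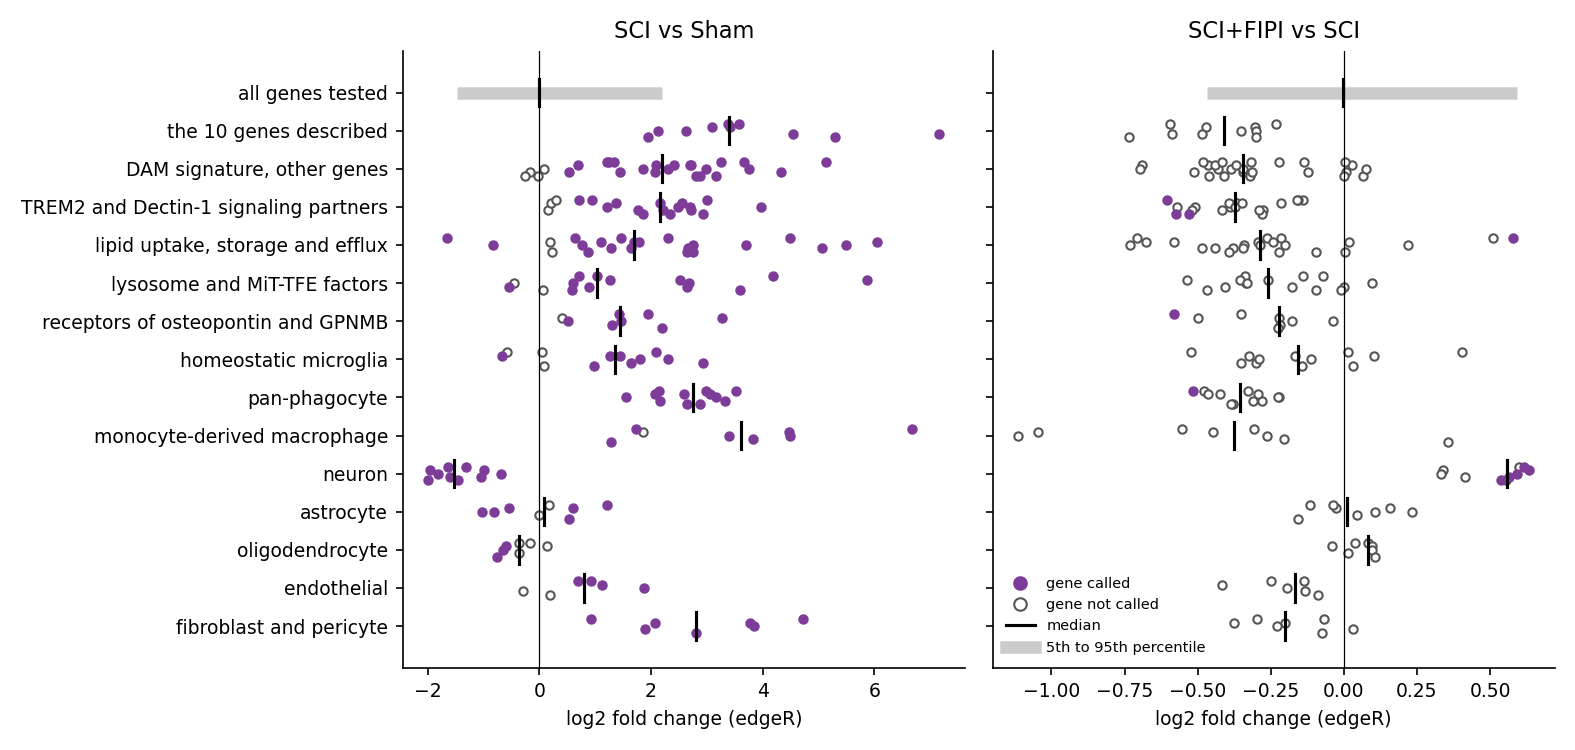
log2 fold changes in edgeR of the 10 genes and of genes in 13 lists, for SCI vs Sham at left and SCI+FIPI vs SCI at right; filled points are genes called, open points are not, black bars are medians, and the gray band spans the 5th to 95th percentile of all genes tested. The 10 genes have medians of 3.40 and -0.41, and no point of theirs is filled at right.

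The profile of each gene over the 9 mice was compared with that of every other gene tested, by the root mean square difference of log2 CPM after centering each gene. The closest gene to Trem2 was Ctsd (0.060), and Cfp (0.068) was among the 3 closest to Fabp5. Apoe was closest to Cyth4 (0.070), Lpl to Cd48 (0.081), Clec7a to Tent5c (0.089) and Tyrobp to Capg (0.106). Cd68 was closest to Lgals3 (0.162) and Cst7 to Klk8 (0.169). Spp1 was nearest to Msr1 at 0.237, and Gpnmb had the least close neighbor, Cd5l at 0.305. None of the 3 nearest genes of any of the 10 was another of the 10. Among the 10 themselves the closest were Trem2 and Tyrobp (0.160) and Lpl and Clec7a (0.179), and the most distant were Gpnmb and Fabp5 (2.49).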

How the data were processed

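The authors trimmed low-quality and adapter reads and deposited raw counts per gene; the aligner, counter and strand setting are not given in the sources used here, and the submitters' processing notes name GRCm38 and R 4.2.3. Groups came from the sample titles. Of the identifiers, 52403 are in GENCODE M21, used for symbols, positions and exonic length. Counts were scaled by TMM, kept by filterByExpr (18699 genes) and fitted for all 9 mice in edgeR 4.0.16 (quasi-likelihood, robust, 1 mean per group), with Benjamini-Hochberg adjustment over all genes tested. CPM was computed with TMM factors, log2 CPM has a prior count of 2, and FPKM is CPM without factors per kilobase of exons. Ratios to pan-phagocyte markers were compared by exact permutation tests (scipy 1.17.1). The fit was tested on simulated data.

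The 10 genes and all gene lists were chosen with earlier results of these data known. Named in full are the 10 genes. Of each list up to 4 genes with the largest called changes in a direction are named, together with defining markers of other cell types, and the nearest of 3 profiles for each of the 10. P2ry12, and Plin2 in the comparison with FIPI, fall outside this rule and were named after their values were seen. Some genes that the rule would name are not reported here. At total counts of 20806000 to 24582377 per mouse, the error of counting was largest for Cst7, the gene with the fewest reads. The alternatives tried were factors by RLE or upper quartile, all genes with a count or only those with at least 10 counts in every mouse, replicate block, GC and length offsets, only the groups compared, DESeq2 1.42.0, limma-voom (limma 3.58.1), no fold limit and each mouse left out.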

Additional observations from a re-analysis of the deposited data

How the results depend on the processing

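The direction of the 10 genes in each of the 3 comparisons was the same under the 19 other fits, and all 10 stayed called higher against Sham, in SCI and in SCI+FIPI mice, in each of them and with no fold limit. In SCI+FIPI vs SCI the number called lower ranged from 0 to 1 when each mouse was left out. The 1 is Spp1 without SCI+FIPI replicate 1, and the cause was not tested. It was 0 under every other setting. The replicate numbers of the labels belong to different mice, and correlations of deviations between mice of the same number ran from -0.07 to 0.11. Between mice of different numbers they ran from -0.11 to 0.09. Whether mice of the same number share a cage, surgery day or batch is not given, and these correlations cannot decide it. With the replicate number as a block, 10, 0 and 10 genes were called in SCI vs Sham, SCI+FIPI vs SCI and SCI+FIPI vs Sham, as without it, and the block changed no call of the 10. In alternatives chosen after seeing the data, the number of genes with every SCI+FIPI mouse below every SCI mouse was not 7 but 4 with upper-quartile factors and 4 with total counts without factors, and it ranged from 7 to 10 with a mouse left out. Of these alternatives, the share of all genes was computed only for upper-quartile factors. Groups with a mouse left out separate more easily in any gene. Of all genes, 442 were called higher and 130 lower with FIPI, but 781 and 257 without SCI 1, and 166 and 23 without SCI+FIPI 2. With no fold limit they were 1130 and 670, and against Sham 5432 in place of 3171 were lower. With no filter, 239 were lower. Relative to the summed CPM of the pan-phagocyte markers, Apoe was lower by 0.16 in place of 0.05 after SCI. A gene of low count, such as Cst7, has a larger error of counting. The standard error of the log2 fold change after SCI was nonetheless larger for Gpnmb (0.551) than for Cst7 (0.324).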
